A study of Bubalus bubalis with 6 samples.

Results

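Integrins, laminins and the proteins that tie basement membranes together were followed in cultured buffalo (Bubalus bubalis) cells that the labels call intramuscular adipocytes, that is, fat cells from between muscle fibres. The members were all gene models of the deposited table named as an integrin alpha or beta subunit, a laminin chain, or NID2, HSPG2 or AGRN. They came to 46 models with 39 names, among 19476 models in all. NID1 and ITGA9 were looked for as well, had no matched model and are not analysed here. The names come from the authors' protein matches, and 6 names were carried by more than 1 model although RefSeq's buffalo gene table (assembly NDDB_SH_1) lists a single gene for each of them.

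Both groups were put in culture medium with 20% fetal bovine serum, transduced with an adenovirus for 48 hours and then kept in adipogenic inducing medium for 48 hours, with collection on day 4. The 3 control samples, labelled wild type, received Ad_EGFP, a virus for a green fluorescent protein. The other 3 received Ad_lncFABP4, which makes the cells overexpress the long non-coding RNA lncFABP4. Viral dose and donor animals are not stated in the sources used here, and wells were plated in triplicate, so that p-values reflect no more than the spread between these samples, possibly a technical one. Of the adipocyte markers ADIPOQ stayed at or under 0.0559 FPKM and CEBPA at or under 0.190 FPKM in every sample, while PPARG lay between 11.8 and 27.1 FPKM, so these markers match the label only in part.

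Integrins are receptors of 1 alpha and 1 beta subunit that bind the extracellular matrix outside the cell and the actin cytoskeleton inside it. Laminins are trimers of an alpha, a beta and a gamma chain that form the sheet of the basement membrane on the cell surface, and nidogens, perlecan (HSPG2) and agrin (AGRN) link that sheet to collagen IV and to receptors. Mature adipocytes are each wrapped in a basement membrane, and the matrix is known to be remodelled from fibronectin towards laminin while preadipocytes turn into fat cells.

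Values are FPKM (fragments per unit of model length, relative to all mapped fragments), a scale per length on which levels of different genes can be compared. A model was tested when it reached 1 FPKM in at least 3 of the 6 samples. The test was limma on log2(FPKM + 1), two-sided, with changes given as lncFABP4 minus EGFP and p-values adjusted by the Benjamini-Hochberg method over all 11064 models tested. A model was called when its adjusted p was under 0.05. Changes are on the log2(FPKM + 1) scale, which understates those of low genes. The number of reads is unknown, since no counts are given. Steps in the lowest values put the depth of the samples at 0.925 to 1.01 times that of EGFP replicate 1, and column totals ran from 340165 to 360920 FPKM. The FABP4 model held 149 to 197 FPKM in the EGFP samples and 6505 to 12003 FPKM in the lncFABP4 samples. In bulk samples, fewer cells of a type and less RNA per cell cannot be told apart.

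After lncFABP4 transduction the laminin chains LAMA2, LAMB1, LAMB2 and LAMC3, the linkers NID2 and HSPG2 (1 of its 2 models) and the integrin subunits ITGA4, ITGA11, ITGB5 and ITGB7 were lower, whereas the laminin receptor subunits ITGA3 and ITGA6, the fibronectin receptor subunit ITGA5 and the laminin chain LAMA1 were higher. Of the 46 models 32 were tested, and 15 of these were called (46.9%, where 26.7% of all tested models were called). Lower calls numbered 11 (34.4% of the members tested, against 10.2% of all models), and higher calls numbered 4 (12.5%, against 16.5%). In 21 of the 32 no value of one group lay within the range of the other (65.6%, against 43.9% of all models). Laminin chains made up 6 of the calls, among 9 tested models, integrin subunits 7 among 18 and linkers 2 among 5. The laminin calls include a LAMB1 model that passed the minimum through EGFP samples only. The median log2 change was -0.12 over the 32 members and 0.05 over all models tested. The members were chosen with earlier results of these data known, so these shares describe them and test nothing.

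A LAMB1 model, evm.model.chr22.490, reached the minimum of 1 FPKM in EGFP samples only and so had to differ. Without such models, 14 of 31 members were called, 10 lower and 4 higher (32.3% and 12.9%, against 9.72% and 16.3% of 10922 models). Higher calls made up 61.8% of all calls with the values as deposited, 51.2% with TMM factors, 50.8% with quantile scaling and 49.2% with median-of-ratios factors. In each of these 3 scalings the 15 called members were called and no other member was. The count of lower members was smaller without EGFP replicate 1 (5), EGFP replicate 3 (6), lncFABP4 replicate 2 (7) or lncFABP4 replicate 3 (6), while that of higher members was 4 or 5. The share of all models called was smaller there too, at 17.6%, 16.6%, 16.4% and 15.1% in this order, against 26.7% with all samples. Without replicate number 3 of both groups only 2 lower and 3 higher members were called, at a share of 5.12% of all models.

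**Figure D1:**
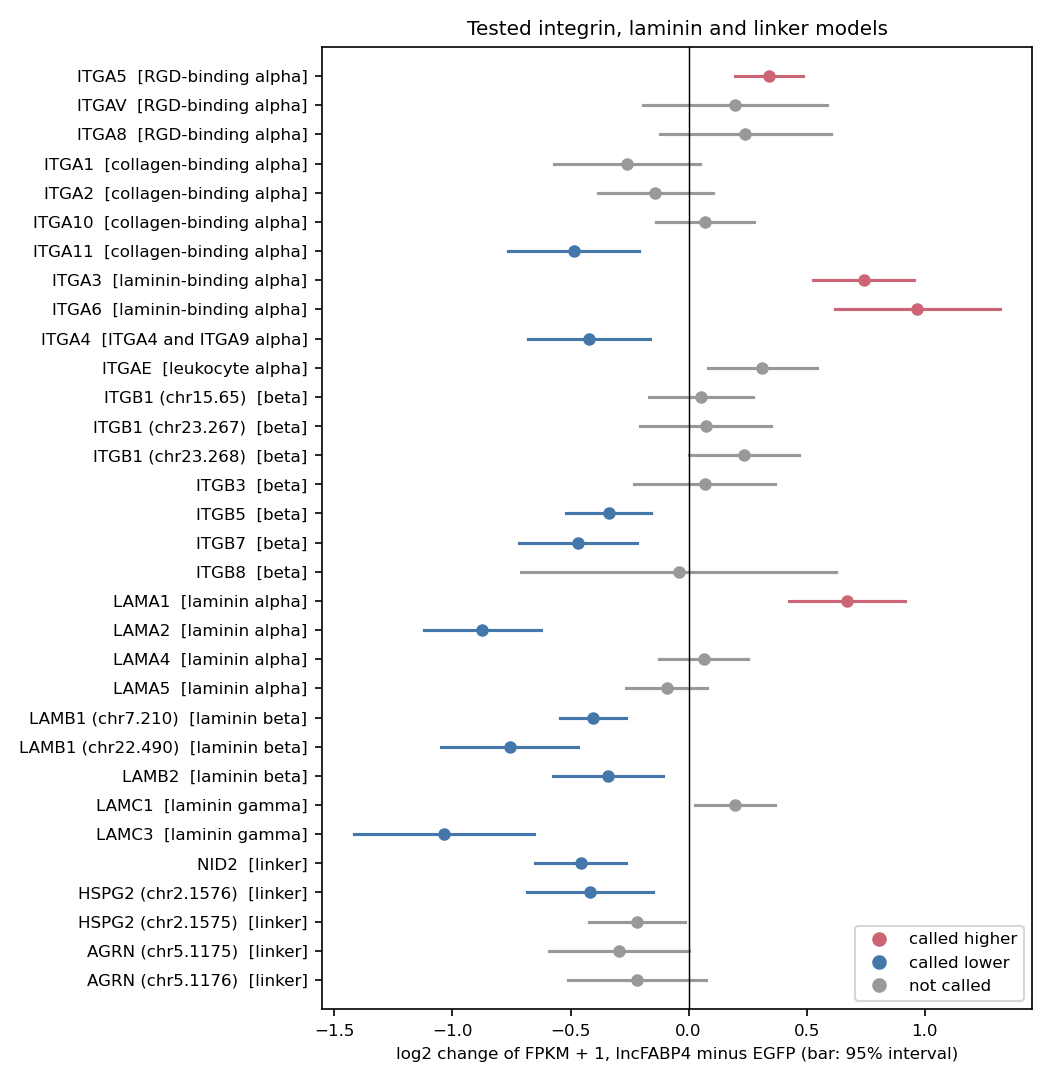
Log2 change of FPKM + 1 (lncFABP4 minus EGFP) of the 32 tested models, ordered by role, with the 95% interval of limma as a bar. Called models are in red (4 higher) and blue (11 lower), and the other 17 are in grey. ITGA6 lies farthest to the right at 0.97 and LAMC3 farthest to the left at -1.03.

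Among the laminin alpha chains, LAMA4 was the most abundant. LAMA4, the alpha chain of laminins around vessels and fat cells, stood at 120, 124 and 110 FPKM with EGFP and 113, 132 and 125 FPKM with lncFABP4. The groups overlapped, and the change of 0.06 (SE 0.08) was not called (limma adjusted p = 0.596), with a 95% interval from -0.12 to 0.25. LAMA5, a widely expressed chain, was at 9.18 to 10.3 FPKM and was not called either (log2 -0.09, limma adjusted p = 0.387).

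LAMA2 fell and LAMA1 rose. LAMA2, the alpha chain of the muscle laminin, was at 22.7, 28.9 and 26.0 FPKM with EGFP and 15.2, 13.2 and 12.6 FPKM with lncFABP4. The EGFP values were all above the lncFABP4 values, with means of 25.9 ± 3.09 and 13.7 ± 1.34 FPKM (SD, n = 3 each), which differed by -0.87 on the log2 scale (SE 0.11, limma adjusted p = 0.00143). LAMA1, the alpha chain of the first basement membranes of the embryo, was at 3.70, 4.62 and 4.76 FPKM with EGFP and 6.97, 8.12 and 7.45 FPKM with lncFABP4. Here every lncFABP4 sample was above every EGFP sample, and the mean was 1.72-fold higher (log2 0.67, SE 0.11, limma adjusted p = 0.00370). The level of LAMA2 was 5.48 to 6.26 times that of LAMA1 in the EGFP samples and 1.63 to 2.18 times in the lncFABP4 samples. Both calls were kept in all 20 alternatives, though LAMA1 passes the filter at 5 FPKM through lncFABP4 samples only and so had to differ there.

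Of the summed alpha chain signal, LAMA4 made up 72.8% to 76.7% in the EGFP samples and 77.9% to 81.0% in the lncFABP4 samples. The share of LAMA2 was 14.5% to 17.3% in the former and 8.10% to 10.4% in the latter. The sum itself overlapped between the groups, at 151 to 168 FPKM and 145 to 163 FPKM.

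LAMB1 and LAMB2 fell in the models that reached 1 FPKM in both groups. A second LAMB1 model, given below, passed that minimum through EGFP samples only and so had to differ. LAMB1, the partner of most laminin alpha chains in soft tissue, was at 290, 283 and 276 FPKM with EGFP and 220, 213 and 208 FPKM with lncFABP4 (evm.model.chr7.210). The spread within each group was small beside the gap between them, with means of 283 ± 7.17 and 214 ± 5.85 FPKM (SD, n = 3), which differed by -0.40 on the log2 scale (SE 0.06, limma adjusted p = 0.00293). LAMB2, a beta chain enriched at muscle synapses and in the kidney filter, was at 47.8, 43.9 and 49.5 FPKM with EGFP and 42.7, 34.1 and 34.5 FPKM with lncFABP4. Its lncFABP4 replicate 1 came close to the lowest EGFP sample (log2 -0.34, SE 0.10, limma adjusted p = 0.0388). That call was lost without EGFP replicate 1 or 3 or lncFABP4 replicate 2 or 3 (limma adjusted p from 0.109 to 0.135) and without a filter on low values.

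The second LAMB1 model, evm.model.chr22.490, held 1.26, 1.24 and 1.82 FPKM with EGFP and 0.524, 0.323 and 0.464 FPKM with lncFABP4 (log2 -0.76, SE 0.13, limma adjusted p = 0.00413). It passed the minimum for testing through EGFP samples only and so had to differ. It is numbered next but one to the LAMB2 model, evm.model.chr22.492, and whether it is a gene of its own is not known. The summed beta chain signal ran from 328 to 340 FPKM in the EGFP samples and from 244 to 264 FPKM in the lncFABP4 samples. LAMB1 (evm.model.chr7.210) was 84.1% to 86.2% of it in the former and 83.5% to 85.9% in the latter. The second LAMB1 model held 0.369% to 0.556% and 0.130% to 0.199%.

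In the gamma class LAMC3 fell and LAMC1 was not called. LAMC3, a gamma chain known from nerve and retina, was at 86.2, 75.3 and 126 FPKM with EGFP and 46.4, 43.8 and 45.2 FPKM with lncFABP4. EGFP replicate 3 was the highest sample, and the lncFABP4 samples lay close together. The means were 95.8 ± 26.6 and 45.1 ± 1.30 FPKM (SD, n = 3), which differed by -1.03 on the log2 scale (SE 0.17, limma adjusted p = 0.00370), and the call was kept in all 20 alternatives. LAMC3 was the only called member with a fold of 2 or more on this scale, which 1.42% of all tested models reached with a call. In FPKM without the added 1, ITGA6 (2.44-fold higher) and the LAMB1 model evm.model.chr22.490 (3.30-fold lower) passed a fold of 2 as well.

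LAMC1, the common gamma chain, was at 143, 158 and 144 FPKM with EGFP and 161, 181 and 169 FPKM with lncFABP4. The groups did not overlap, but the change of 0.20 (SE 0.07) was not called (limma adjusted p = 0.0849). Without lncFABP4 replicate 1 it was called (limma adjusted p = 0.0473). The summed gamma chain signal did not overlap, at 230 to 270 FPKM with EGFP and 208 to 225 FPKM with lncFABP4. LAMC1 was 1.14 to 2.10 times as abundant as LAMC3 in the EGFP samples and 3.48 to 4.12 times in the lncFABP4 samples.

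The linkers were lower or not called. NID2, a nidogen that bridges laminin and collagen IV, was the most abundant of them, at 349, 354 and 332 FPKM with EGFP and 280, 242 and 232 FPKM with lncFABP4. All 3 lncFABP4 samples lay under the EGFP samples (means of 345 ± 11.6 and 251 ± 25.5 FPKM, SD, n = 3; log2 -0.46, SE 0.08, limma adjusted p = 0.00602). Perlecan, the heparan sulfate proteoglycan of basement membranes, had 2 neighbouring models named HSPG2.

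Of these, evm.model.chr2.1576 fell, from 62.9, 47.4 and 55.4 FPKM to 45.8, 38.4 and 38.7 FPKM (log2 -0.42, SE 0.12, limma adjusted p = 0.0311). The highest lncFABP4 sample was just under the lowest EGFP sample, and the call was lost without EGFP replicate 1 or 3 or lncFABP4 replicate 2 or 3 (limma adjusted p from 0.0872 to 0.102) and without a filter on low values. The other HSPG2 model, evm.model.chr2.1575, held 19.6 to 24.2 FPKM with EGFP and 18.4 to 19.0 FPKM with lncFABP4 and was not called (log2 -0.22, limma adjusted p = 0.104). Whether these are parts of a single gene is not known. AGRN, the proteoglycan agrin that binds laminin and dystroglycan, was low in both of its models (0.927 to 2.69 FPKM), with changes of -0.29 and -0.22 that were not called (limma adjusted p = 0.126 and 0.233).

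**Figure D2:**
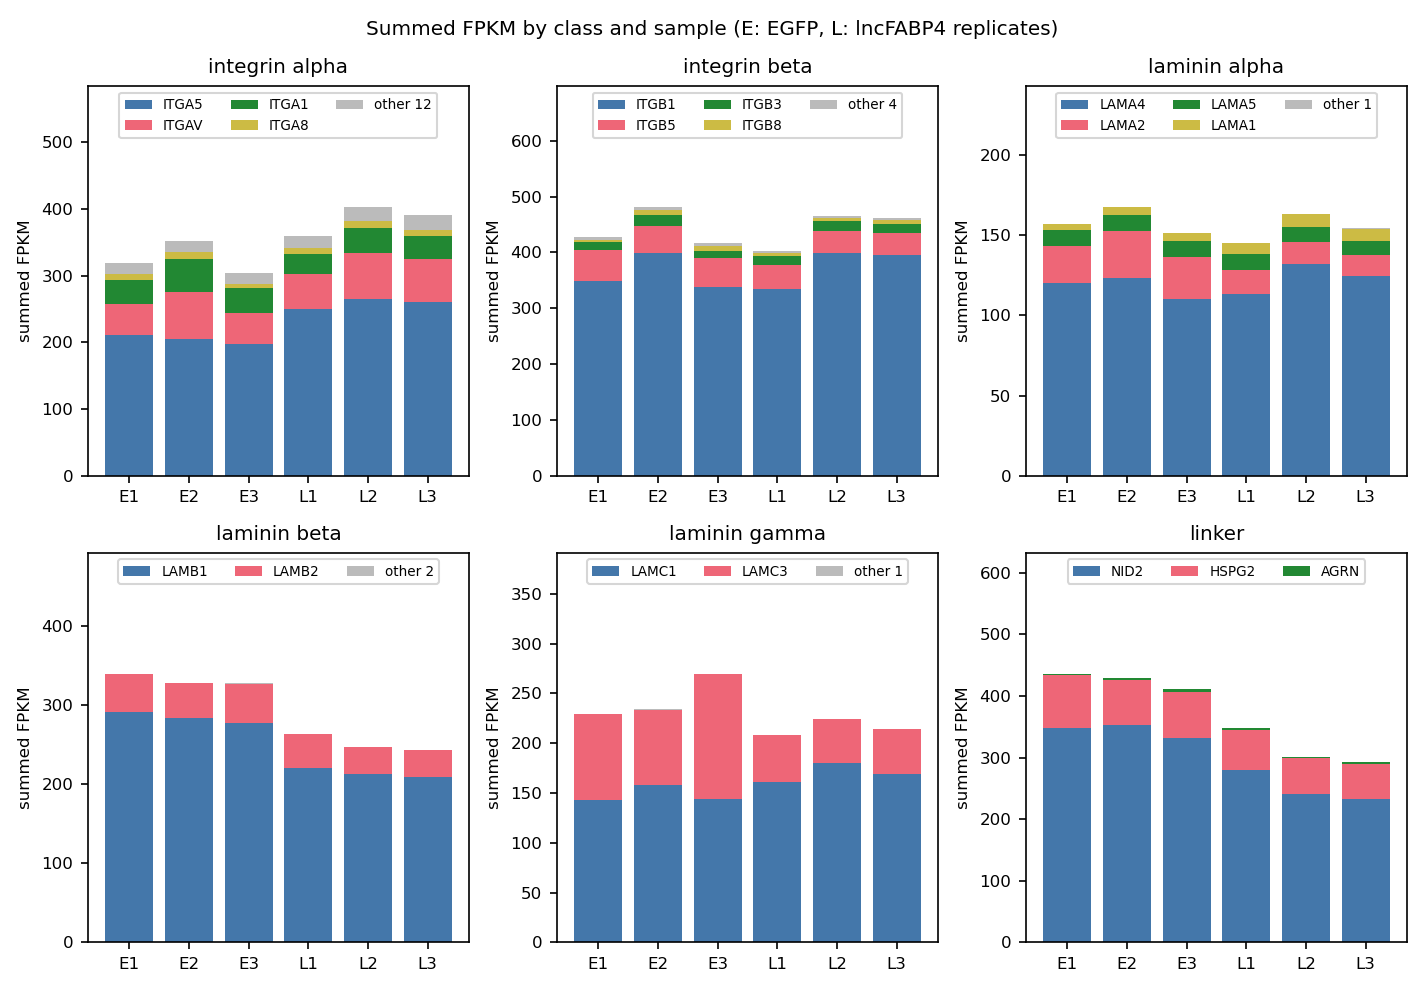
Summed FPKM of each class in every sample (E1 to E3, EGFP replicates; L1 to L3, lncFABP4 replicates), with up to 4 names of a mean of at least 1 FPKM stacked in colour and the rest in grey. The laminin beta, laminin gamma and linker columns of the 3 lncFABP4 samples are lower than all EGFP columns, and the integrin alpha columns are higher.

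Among the integrins, both tested laminin-binding alpha subunits rose. ITGA3, whose integrin binds laminins that contain LAMA5 or LAMA3, was at 2.60, 2.91 and 2.36 FPKM with EGFP and 5.25, 5.00 and 4.88 FPKM with lncFABP4. ITGA6, which pairs with ITGB1 or ITGB4 as a general laminin receptor, was at 2.00, 2.25 and 2.19 FPKM with EGFP and 3.82, 5.64 and 6.29 FPKM with lncFABP4. In both genes every lncFABP4 sample was above every EGFP sample, and lncFABP4 replicate 1 was the lowest of its group for ITGA6. The rise was 1.92-fold for ITGA3 (log2 0.74, SE 0.09, limma adjusted p = 0.00154) and 2.44-fold for ITGA6 (log2 0.97, SE 0.15, limma adjusted p = 0.00338). Both calls were kept in each of the 19 alternatives that tested the genes, all but the filter at 5 FPKM. ITGA7, the laminin receptor subunit of muscle, was under the minimum for testing at 0.266 to 0.424 FPKM.

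ITGA5 was the most abundant alpha subunit and rose. ITGA5, which forms the main fibronectin receptor with ITGB1 and recognises the RGD motif, was at 210, 205 and 198 FPKM with EGFP and 250, 266 and 261 FPKM with lncFABP4. The groups were well apart, with means of 204 ± 6.17 and 259 ± 8.24 FPKM (SD, n = 3), which differed by 0.34 on the log2 scale (SE 0.06, limma adjusted p = 0.00631). The other RGD-binding subunits ITGAV, of the vitronectin receptors, and ITGA8, of a nephronectin receptor, overlapped between the groups. ITGAV was at 47.0, 70.5 and 45.6 FPKM with EGFP and 52.7, 68.3 and 63.5 FPKM with lncFABP4 (log2 0.20, limma adjusted p = 0.421). EGFP replicate 2 was the highest EGFP sample, and without it ITGAV was called higher (log2 0.39, limma adjusted p = 0.0453). ITGA8 was at 5.70 to 9.61 FPKM and 8.69 to 9.82 FPKM (log2 0.24, limma adjusted p = 0.287).

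None of the 4 collagen-binding subunits was called higher. ITGA1, the most abundant of them, was at 36.7, 50.2 and 38.0 FPKM with EGFP and 30.1, 38.3 and 34.9 FPKM with lncFABP4. The groups overlapped, since lncFABP4 replicate 2 lay above EGFP replicates 1 and 3 (log2 -0.26, SE 0.13, limma adjusted p = 0.187). ITGA11, a receptor of fibrillar collagen in mesenchymal cells, fell from 1.52, 1.58 and 1.70 FPKM to 0.587, 0.963 and 1.05 FPKM (log2 -0.49, SE 0.12, limma adjusted p = 0.0201). All lncFABP4 samples were lower than the EGFP samples, though the call was lost without EGFP replicate 1 or 3 (limma adjusted p from 0.0509 to 0.0688). ITGA2 and ITGA10 were at 1.19 to 2.13 FPKM in all samples, with changes of -0.14 and 0.07 that were not called (limma adjusted p = 0.350 and 0.595).

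ITGA4, a subunit that binds fibronectin and the adhesion molecule VCAM1, fell from 3.05, 3.56 and 2.53 FPKM to 1.97, 2.05 and 1.99 FPKM (log2 -0.42, SE 0.11, limma adjusted p = 0.0262). The EGFP samples were all higher and more spread out. The call was lost without EGFP replicate 1 or 2 or lncFABP4 replicate 2 or 3 (limma adjusted p from 0.0625 to 0.0799) and without a filter on low values. ITGAE, a subunit known from T cells, was at 2.17 to 2.67 FPKM with EGFP and 2.98 to 3.38 FPKM with lncFABP4 and just missed the threshold (log2 0.31, limma adjusted p = 0.0517). It was called without EGFP replicate 1 (limma adjusted p = 0.0472).

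The beta subunits were led by ITGB1, the partner of most matrix-binding alpha subunits, which was not called. Its main model, evm.model.chr15.65, held 341, 391 and 331 FPKM with EGFP and 326, 392 and 385 FPKM with lncFABP4. The groups overlapped over most of their range (log2 0.05, SE 0.10, limma adjusted p = 0.712, 95% interval from -0.17 to 0.27), and with median-of-ratios factors the sign of this small change turned (-0.00562). The neighbouring models evm.model.chr23.267 and evm.model.chr23.268, also named ITGB1, held 5.89 to 8.02 FPKM and 1.04 to 1.67 FPKM and were not called (limma adjusted p = 0.682 and 0.125). They can share reads with the main model.

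ITGB5 and ITGB7 fell. ITGB5, a partner of ITGAV in vitronectin binding, was at 54.6, 48.0 and 52.5 FPKM with EGFP and 43.3, 39.1 and 39.5 FPKM with lncFABP4 (log2 -0.34, SE 0.08, limma adjusted p = 0.0160). ITGB7, a partner of ITGA4 and ITGAE that is known from lymphocytes, was at 4.61, 4.50 and 4.67 FPKM with EGFP and 3.49, 3.18 and 2.51 FPKM with lncFABP4 (log2 -0.47, SE 0.11, limma adjusted p = 0.0159). In both genes the groups did not overlap. The call of ITGB5 was lost without EGFP replicate 1 or 3 or lncFABP4 replicate 2 or 3 (limma adjusted p from 0.0583 to 0.0674). The call of ITGB7 was lost without EGFP replicate 1 or 3 or lncFABP4 replicate 3 (limma adjusted p from 0.0509 to 0.0556).

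ITGB3, another partner of ITGAV in vitronectin binding, overlapped between the groups at 13.1 to 19.0 FPKM and 15.1 to 17.1 FPKM (log2 0.07, limma adjusted p = 0.727). ITGB8, which with ITGAV activates latent TGF-beta, was at 3.56, 9.91 and 8.60 FPKM with EGFP and 6.14, 6.23 and 7.47 FPKM with lncFABP4. EGFP replicate 1 was the lowest and replicate 2 the highest of all 6 samples, and the interval of the change was wide (log2 -0.04, 95% interval from -0.71 to 0.62, limma adjusted p = 0.926).

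Summed over all integrin alpha models, the signal was 304 to 352 FPKM in the EGFP samples and 360 to 403 FPKM in the lncFABP4 samples. The beta sums overlapped, at 417 to 481 FPKM and 403 to 466 FPKM. The ratio of the alpha to the beta sum was 0.728 to 0.746 in the EGFP samples and 0.846 to 0.893 in the lncFABP4 samples, without overlap. ITGA5 made up 58.0% to 66.1% of the alpha sum in the former and 65.9% to 69.3% in the latter, and the main ITGB1 model 79.3% to 81.2% and 80.9% to 84.2% of the beta sum.

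**Figure D3:**
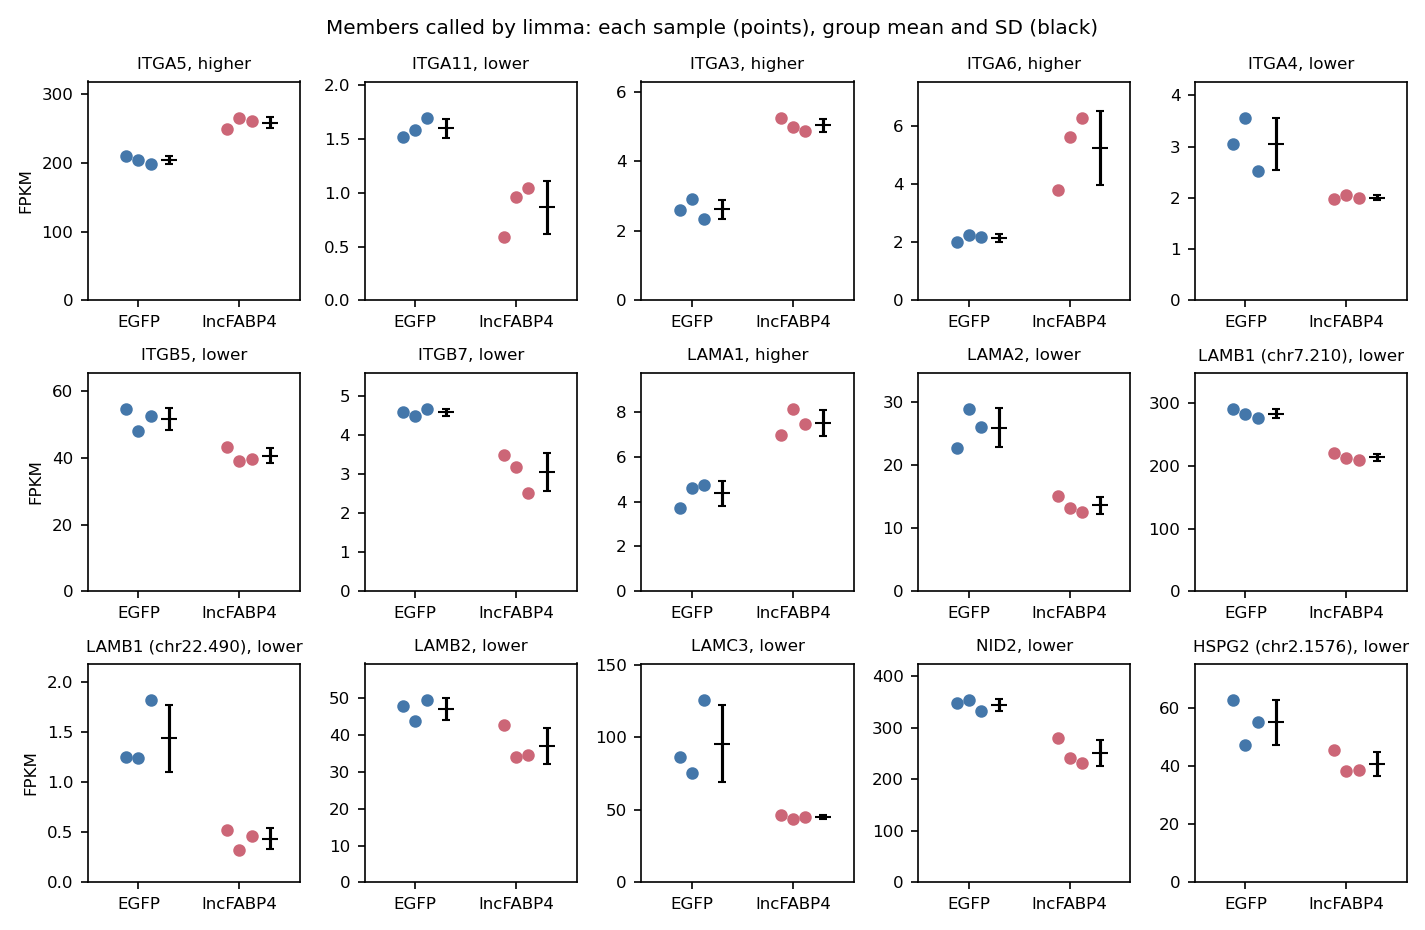
FPKM of the 15 called models in each sample (points; blue, EGFP; red, lncFABP4), with the group mean and SD in black and a linear axis from 0. In all 15 panels the points of the groups do not overlap, and LAMC3 shows the widest EGFP spread, from 75.3 to 126 FPKM.

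The 14 members that were not tested were low in all samples, and 13 of them stayed under 1 FPKM throughout. The exception was ITGA2B, the platelet fibrinogen receptor subunit, at 0.859, 0.962 and 1.24 FPKM with EGFP and 0.673, 0.397 and 0.399 FPKM with lncFABP4. ITGB4, the epithelial partner of ITGA6, was at 0.388 to 0.504 FPKM and 0.660 to 0.714 FPKM. The values of these 2 genes did not overlap between the groups, and without a filter on low values ITGA2B was called lower and ITGB4 higher (log2 -0.44 and 0.23, limma adjusted p = 0.0456 and 0.0431). LAMA3 and LAMB3, known from epithelium, reached at most 0.195 and 0.597 FPKM. LAMB4 reached 0.186 FPKM, ITGB6 of epithelium 0.0686 FPKM, and the leukocyte subunits ITGAL, ITGAM, ITGAX and ITGB2 0.0209, 0.0234, 0.137 and 0.0515 FPKM.

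Genes that act with integrins inside the cell or beside them in the membrane were taken from a list of 37 names, of which 32 were matched, with 34 models, 30 of them tested. Of these 14 rose, 1 fell and 15 were not called, a share of 46.7% higher and 3.33% lower against 16.5% and 10.2% of all models. The median log2 change was 0.25, against 0.05 over all models. The list was chosen with earlier results of these data known, so these shares describe it and test nothing. PARVB passed the minimum through lncFABP4 samples only, and without it 13 of 29 rose. With TMM or median-of-ratios factors 11 rose and with quantile scaling 10, since RSU1, ACTN4 and BCAR1 (named after their values were seen) were not called in any of these scalings, nor SLC3A2 with quantile scaling. The count of higher models was 9 without EGFP replicate 2, EGFP replicate 3 or lncFABP4 replicate 2, 8 without lncFABP4 replicate 3, and 1 without replicate number 3 of both groups. In this order, 25.1%, 16.6%, 16.4%, 15.1% and 5.12% of all models were called in these settings.

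LIMS1, which encodes PINCH1 of the complex that anchors integrins to actin, had the smallest adjusted p. It was at 40.0, 43.0 and 39.7 FPKM with EGFP and 65.3, 82.5 and 74.0 FPKM with lncFABP4, clearly apart (log2 0.83, SE 0.09, limma adjusted p = 0.000952), and was called in all 20 alternatives. Its relative LIMS2 rose from 2.57 to 5.42 FPKM in the mean (log2 0.83, limma adjusted p = 0.00584). FERMT2, the kindlin that activates integrins through their beta tail, rose from 96.9 ± 7.01 to 148 ± 12.2 FPKM (SD, n = 3; log2 0.60, limma adjusted p = 0.00258). TLN1, the talin that links beta tails to actin, rose by 0.35, the adaptor paxillin (PXN) by 0.56 and the actin cross-linker FLNA by 0.57 (limma adjusted p = 0.00688, 0.00275 and 0.00816). These 6 calls were kept without any single library.

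The member of the list that fell was CD81, a tetraspanin of the cell membrane, from 195, 158 and 184 FPKM to 150, 118 and 127 FPKM (log2 -0.44, limma adjusted p = 0.0212). Its call was lost without EGFP replicate 1 or 3 or lncFABP4 replicate 2 or 3 (limma adjusted p from 0.0706 to 0.0772) and without a filter on low values. PTK2, the focal adhesion kinase, was at 28.5 to 30.3 FPKM in all 6 samples and was not called (log2 0.03, 95% interval from -0.13 to 0.18, limma adjusted p = 0.805; chosen after its values were seen).

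**Figure D4:**
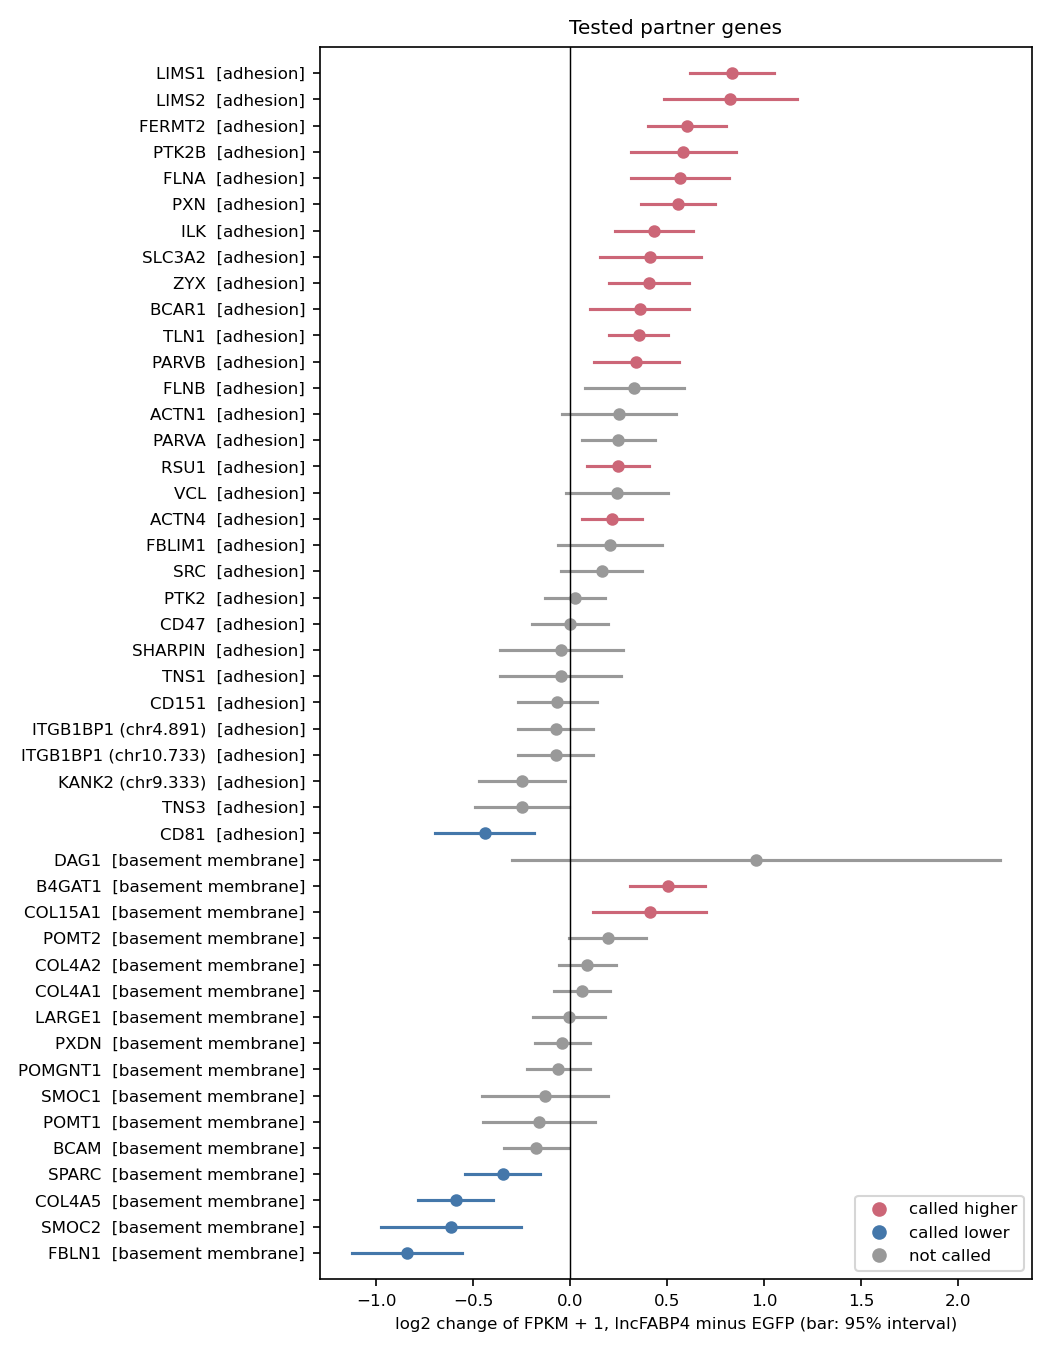
Log2 change of FPKM + 1 (lncFABP4 minus EGFP) of the tested models of the 2 partner lists, with the 95% interval of limma as a bar. In the adhesion list 14 models are called higher (red) and 1 lower (blue). In the basement membrane list, of which 1 model is not drawn, 4 are lower, and DAG1 has the widest interval, from -0.30 to 2.21.

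Other basement membrane proteins, and dystroglycan with the enzymes that give it its laminin-binding sugar, formed a list of 30 names, with 22 matched and 17 of 23 models tested. Of these 3 rose, 4 fell and 10 were not called (17.6% higher and 23.5% lower, against 16.5% and 10.2% of all models), and the median log2 change was -0.04. This list too was chosen with earlier results of these data known. Without a single library the count of higher models went to 1 for EGFP replicate 1, EGFP replicate 3, lncFABP4 replicate 2 and lncFABP4 replicate 3, and that of lower models to 2 for the latter pair. Of all models 15.1% to 17.6% were called in these settings, against 26.7% with all samples.

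FBLN1, the laminin-binding fibulin, fell from 63.5, 53.2 and 74.4 FPKM to 38.3, 32.9 and 33.5 FPKM (log2 -0.84, limma adjusted p = 0.00271). COL4A5, a minor collagen IV chain, fell from 8.54 ± 0.468 to 5.34 ± 0.259 FPKM (SD, n = 3; log2 -0.59, limma adjusted p = 0.00235). Both were called in all 20 alternatives. COL4A1 and COL4A2, the chains of the common collagen IV network, were not called (log2 0.06 and 0.09, limma adjusted p = 0.501 and 0.338).

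The collagen-binding protein SPARC fell by 0.35 and its relative SMOC2 fell by 0.61 on the log2 scale (limma adjusted p = 0.0189 and 0.0232). The call of SPARC was lost without EGFP replicate 1 or 3 or lncFABP4 replicate 2 or 3 (limma adjusted p from 0.0671 to 0.0806), with quantile scaling and without a filter on low values. That of SMOC2 was lost without lncFABP4 replicate 2 or 3 (limma adjusted p from 0.0568 to 0.0704) and without a filter.

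Among those that rose were B4GAT1, an enzyme of the dystroglycan sugar, and the collagen COL15A1. B4GAT1 rose from 10.8 ± 0.393 to 15.8 ± 1.28 FPKM (SD, n = 3; log2 0.50, limma adjusted p = 0.00434) and COL15A1 by 0.41 on the log2 scale (limma adjusted p = 0.0451). The call of COL15A1 was lost in the absence of any library other than lncFABP4 replicate 1 (limma adjusted p from 0.0538 to 0.144), with TMM or median-of-ratios factors, and without a filter on low values. DAG1, dystroglycan itself, chosen after its values were seen, was at 24.1, 3.29 and 16.4 FPKM with EGFP and 23.1, 22.7 and 23.1 FPKM with lncFABP4. EGFP replicate 2 stood far under the other 5 samples, and the change was not called (limma adjusted p = 0.227).

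Markers of cell types moved beside these results, and their part in them was not tested. All 4 matched markers of fibroblasts and preadipocytes fell, beside the lower LAMA2, LAMB1, LAMC3 and NID2. Their summed level, nearly all DCN and COL1A1, was 7985 to 8574 FPKM in the EGFP samples and 5131 to 5632 FPKM in the lncFABP4 samples. Of 4 matched skeletal muscle markers with a summed level of 4.34 to 5.00 FPKM and 2.14 to 2.98 FPKM, DES and MYH3 fell, and ACTA1 and MYF5 reached at most 0.287 FPKM. For endothelial cells VWF rose (log2 0.34, limma adjusted p = 0.0218), whereas PECAM1, CDH5, KDR and TEK reached at most 0.0191, 0.0679, 0.0361 and 0.347 FPKM. The summed level of the 5 endothelial markers, nearly all VWF, was 3.11 to 3.52 FPKM and 4.39 to 4.63 FPKM. Beside it ITGA6 and LAMA1 were higher, while LAMA4 and LAMA5 were not called. The leukocyte marker PTPRC was at most 0.0113 FPKM, beside ITGA4, ITGB7 and ITGAE at 1.97 to 4.67 FPKM, and none of the 5 leukocyte markers was called (summed level 8.91 to 10.9 FPKM and 8.84 to 9.53 FPKM, nearly all CD68). The 6 models of pericyte and smooth muscle markers summed to 41.0 to 55.3 FPKM and 36.9 to 53.5 FPKM, and 1 of them, a CSPG4 model, rose. The 4 Schwann cell markers summed to at most 0.125 FPKM and the epithelial marker CDH1 reached 0.115 FPKM. Among 5 adipocyte markers PPARG rose, as did FABP4, which shares its name with the overexpressed lncFABP4. CIDEC was not called (log2 0.20, limma adjusted p = 0.152), and ADIPOQ and CEBPA reached at most 0.0559 and 0.190 FPKM.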

How the data were processed

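RNA with a poly(A) tail was sequenced on a DNBSEQ platform, per the labels' protocols. HISAT2 and StringTie are named, without versions, in the submitters' processing notes; genome build and annotation were not given in the sources used here. The deposited table holds 1 value per model and sample, read as FPKM of the authors because its header names no unit and its column totals differ. All columns of values were used. Models were fitted in R 4.3.3 using limma 3.58.1 (mean-variance trend, pseudocount of 1, no replicate block), and the code was checked on simulated data. There 38% of 50 changes of 1.5-fold and 92% of 50 changes of 2-fold were recovered, with 12 false calls. Far fewer models were changed in that simulation than were called here. A model that was not called may still differ. Symbols were matched in upper case, and 37 of 39 member names are symbols of RefSeq's buffalo gene table. The 20 alternatives changed pseudocount, filter, scaling, variance model, block, samples or the summing of models that share a name, and rescaling without FABP4 was added after the data had been seen.

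The members and lists were chosen with earlier results of these data known. Values of every sample are given for called members whose groups do not overlap and for the most abundant model of each role. Of each partner list up to 6 models per direction with the smallest adjusted p are named. Some genes that the rule takes are left out of the text.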

Additional observations from a re-analysis of the deposited data

How the results depend on the processing

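All 15 called members kept their direction in the alternatives that tested them, 9 kept their call without any single library, and 5 (ITGA3, ITGA6, LAMA1, LAMA2 and LAMC3) kept it in each of them. ITGA5, NID2 and both LAMB1 models lost theirs only when a replicate number was left out of both groups. With a filter at 5 FPKM, 2 members were higher (LAMA1, which passes it through lncFABP4 samples only, and ITGA5) and 7 lower, since fewer were tested, and 1 basement membrane partner was higher. That count was also 1 with median-of-ratios factors and without a filter. Of the adhesion partners 2 were lower with quantile scaling and with the replicate block, and 0 without a filter. Leaving out a single library gave 4 or 5 members higher and 5 to 11 lower, 8 to 14 adhesion partners higher and 0 to 2 lower, 1 to 3 basement membrane partners higher and 2 to 5 lower, and 1028 to 2022 of all models higher and 645 to 1446 lower. Without replicate 2 of both groups there were 5 lower members, 7 higher adhesion partners, 1 higher and 2 lower basement membrane partners, and 862 higher and 544 lower models. Without replicate 3 of both groups there were 2 lower members, 1 higher and 0 lower adhesion partners, 0 higher and 2 lower basement membrane partners, and 335 higher and 232 lower models. The cause was not tested.

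Directions turned only in members that were not called: ITGB1 (evm.model.chr15.65) with median-of-ratios factors (-0.00562), LAMA4 with quantile scaling (-0.013), and, without replicate 3 of both groups, ITGB1 (-0.031 in evm.model.chr15.65 and -0.084 in evm.model.chr23.267), ITGB3 (-0.045) and ITGB8 (0.027). ITGB8 was at 0.23 without replicate 2 of both groups. Without a single library, evm.model.chr23.267 ran from -0.028 to 0.17, ITGB3 from -0.040 to 0.21 and ITGB8 from -0.43 to 0.20. ITGAE was called with models summed by name and after rescaling without FABP4 (limma adjusted p = 0.0416 and 0.0451).

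Whether replicate numbers pair the samples is not known, and the values do not settle it. Deviations of same-numbered samples correlated at 0.181, 0.291 and -0.0774. The value for replicate 2 was the highest of all pairs, whereas EGFP replicate 3 correlated best with lncFABP4 replicate 1 (0.199). With the replicate block 5 members were higher and 12 lower, with LAMC1 and ITGA1 added (limma adjusted p = 0.0464 and 0.0447), and 2061 models were higher and 1275 lower. Alternatives that need counts were not run, and the unknown depth limits what can be said of members under 1 FPKM.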
